A study of Mus musculus with 8 samples.

Results

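Expression of 10 genes of the primitive streak and mesendoderm was examined in mouse embryonic stem cells (mESCs): T, Mixl1, Gsc, Eomes, Mesp1, Tbx6, Msgn1, Evx1, Cer1 and Foxa2. They were chosen by name, and each matched exactly 1 of the 19429 genes in the deposited RNA-seq table. RNA was sequenced from 2 WT lines (numbers 2 and 5) and 2 D2018A lines (7 and 8), each in 2 technical replicates, which gives 4 libraries per genotype. In D2018A cells an aspartate near the C-terminus of TET1, a dioxygenase that oxidises 5-methylcytosine, is changed to alanine, which weakens binding of the O-GlcNAc transferase OGT. All lines derive from the mESC line LF2, grow in serum with leukemia inhibitory factor, carry a FLAG tag at the C-terminus of TET1 followed by a separately translated fluorescent protein, and were each propagated from a single cell. The WT lines, but not the D2018A lines, were found by the study to have lost a stretch of DNA distal to the Cas9 cut site.

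The primitive streak is the region of the gastrulating embryo where epiblast cells leave the epithelium and become mesoderm or definitive endoderm. Nodal, Wnt and BMP signals induce it, and T-box, homeobox, basic helix-loop-helix and forkhead transcription factors carry out the change of fate. In mESCs kept with leukemia inhibitory factor these genes are generally regarded as signs of differentiation, although T and Eomes are known to be detectable in a minority of cells.

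The value analysed for each gene was the authors' mean normalised count, that is, the reads of the gene after scaling for depth, averaged over every library that entered the authors' normalisation. Since it is 1 value per gene, no standard deviation between replicates accompanies it, and levels in WT and D2018A cells were not compared here. Steps among the smallest means, explained below, showed 12 libraries behind each mean, 4 more than the 8 samples described, and the origin of these 4 was not determined. Between genes, levels are given as the mean normalised count per kilobase of the longest annotated transcript. In a bulk sample, few cells that express a gene strongly and many that express it weakly cannot be told apart.

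To show DNA in front of these genes, the first 200 bases of a RefSeq promoter window are printed. They are given for Eomes and Tbx6, the members with the highest levels, and for Msgn1 and Cer1, those with the lowest. Each stretch lies upstream of the start site but ends short of it, so the bases next to the start are not shown. The sequences are from RefSeq on GRCm38.p6, run 5′ to 3′ on the gene's strand, overlap no annotated exon, and have every CpG, the site of DNA methylation, in capitals. They lie at chr9:118477939-118478138 on the plus strand for Eomes, chr7:126781233-126781432 on the plus strand for Tbx6, chr12:11208999-11209198 on the minus strand for Msgn1 and chr4:82885202-82885401 on the minus strand for Cer1.
Eomes: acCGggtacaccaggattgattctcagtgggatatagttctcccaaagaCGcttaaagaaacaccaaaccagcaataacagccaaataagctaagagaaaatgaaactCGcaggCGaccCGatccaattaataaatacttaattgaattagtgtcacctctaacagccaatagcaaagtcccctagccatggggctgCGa
Tbx6: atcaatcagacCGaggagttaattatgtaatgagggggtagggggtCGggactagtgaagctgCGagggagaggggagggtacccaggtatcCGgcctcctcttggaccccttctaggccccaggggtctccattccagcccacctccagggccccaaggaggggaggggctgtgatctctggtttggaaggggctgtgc
Msgn1: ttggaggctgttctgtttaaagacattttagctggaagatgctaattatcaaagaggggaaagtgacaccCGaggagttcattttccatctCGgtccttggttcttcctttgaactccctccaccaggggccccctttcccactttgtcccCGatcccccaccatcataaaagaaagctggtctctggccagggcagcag
Cer1: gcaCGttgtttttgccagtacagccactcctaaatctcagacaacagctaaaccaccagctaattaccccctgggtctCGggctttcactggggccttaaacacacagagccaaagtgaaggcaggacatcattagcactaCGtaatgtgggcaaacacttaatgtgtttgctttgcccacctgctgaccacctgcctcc

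The stretches hold 6 CpGs for Eomes, 4 for Tbx6, 3 for Msgn1 and 3 for Cer1. Over the whole window, which spans the start site, the number of CpGs was 10 for Eomes, 7 for Tbx6, 4 for Msgn1 and 6 for Cer1, against a median of 7 over 32851 promoter windows. The window of Gsc had the most of any member, 25, followed by 1 of the 3 windows of Foxa2 with 23 and that of T with 17. Evx1 had 12 and Mesp1 had 4. Matching promoters were found for 9 of the 10 members, all but Mixl1. Levels did not rank as CpG counts did: Gsc, with the most CpGs, had 4.02 normalised counts per kilobase and Tbx6, with 7, had 39.9.

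Motifs of factors that act in the streak were searched on both strands of the same windows. The T-box half-site TCACACCT was found in the window of Mesp1 and in 1.28% of all windows. The letters CTTTGAT, bound by TCF and LEF factors downstream of Wnt, were found in those of Mesp1, Msgn1 and 1 of the 3 of Foxa2, and in 3.73% of all windows. AATNNACA, part of the motif of FOXH1, the DNA-binding partner of Nodal-activated SMADs, was in no member's window and in 12.2% of all. These are matches of letters only.

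**Figure D1:**
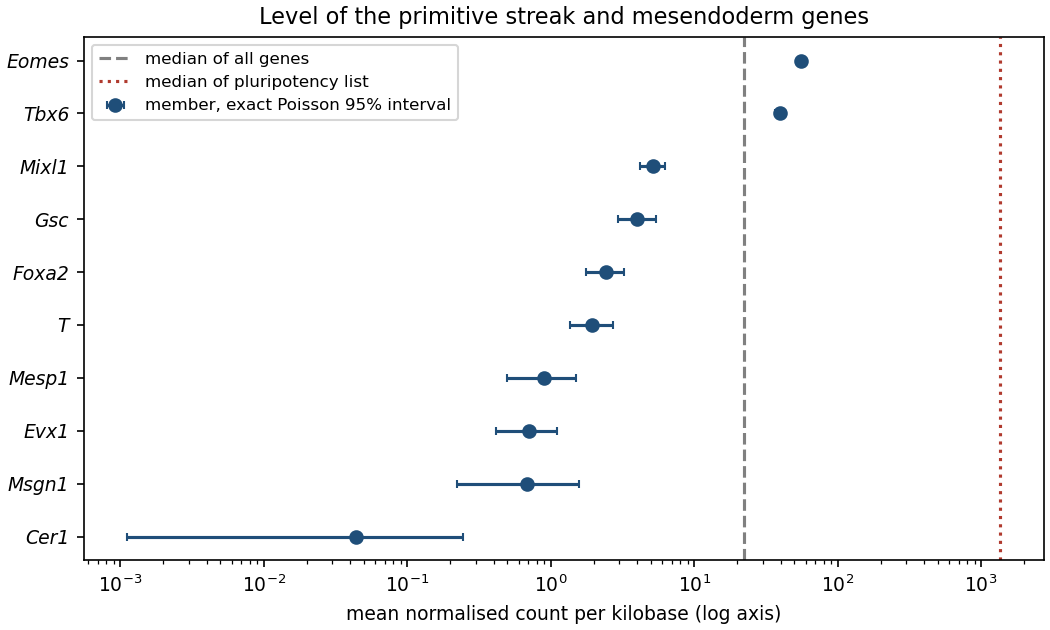
Level of each member as the mean normalised count per kilobase of the longest transcript, on a log axis. Bars show the exact Poisson 95% interval of its reads for Mesp1, Msgn1 and Cer1, and of the lower bound on its reads for the other members. Eomes and Tbx6 lie above the median of all genes (22.3, dashed) and the other 8 members below it, and every member lies far below the median of the pluripotency list (1357, dotted).

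The 10 members fell into a pair of genes with substantial reads and a group of 8 with few. Eomes and Tbx6 together made up 90.0% of the summed means of the members. Only 3 members, Eomes, Tbx6 and Mixl1, had a mean of at least 10, compared with 66.3% of all genes in the table. The median level of the members was 2.19 normalised counts per kilobase and that of all genes 22.3. Ranked by level among the 19342 genes with an annotated length, the members had a median percentile of 27.9.

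Among the T-box factors, Eomes (chromosome 9, 118478212 to 118486132, plus strand), which is required for mesoderm delamination and definitive endoderm, had the highest level of all members. Its mean was 198.7 and its level 55.8 per kilobase, at percentile 63.0 of all genes and 3.78% of the level of the pluripotency factor gene Pou5f1. Between 1731 and 3514 reads lie behind that mean, so counting alone leaves a standard error of at most 2.40% of the value. Of its 50-base stretches, 2.10% also occur in transcripts of 124 other genes, and Gm33460 overlaps 574 bases of its span on the opposite strand. Reads in those bases are uncertain.

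Tbx6 (chromosome 7, 126781483 to 126785560, plus strand), which directs paraxial mesoderm away from a neural fate, had a mean of 68.9 and a level of 39.9 per kilobase, at percentile 58.0. Eomes exceeded it 1.40-fold, with a 95% interval from counting error of 1.28 to 1.54. Tbx6 lies between strongly expressed genes. The end of Ppp4c, on the opposite strand, is 305 bases away and the end of Ypel3, on the same strand, 968 bases away, with levels 17.5 and 15.0 times that of Tbx6. None of the 50-base stretches of Tbx6 occurs in another annotated gene's transcripts, and the part that transcription running on from these neighbours may have in its reads was not tested.

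T, known as Brachyury (chromosome 17, 8434423 to 8442496, plus strand), is the defining gene of the streak and of nascent mesoderm. It was much lower than the other T-box members, with a mean of 3.99 and a level of 1.95 per kilobase, at percentile 27.0 of all genes. With the median transcript length, which is short for T, its level was 5.24, still below Eomes (69.3) and Tbx6 (42.3) but above Mixl1, Gsc and Foxa2. Its mean rests on 35 to 70 reads over all 12 libraries, an average of few reads per library.

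Among the homeobox factors, Mixl1 (chromosome 1, 180693043 to 180697034, minus strand), which acts in mesendoderm under Nodal and BMP control, had a mean of 11.8 and a level of 5.14 per kilobase. Gsc (chromosome 12, 104471209 to 104473330, minus strand), a repressor of the anterior streak and organizer, had a mean of 5.10 and a level of 4.02. Evx1 (chromosome 6, 52313498 to 52318378, plus strand), which marks the posterior streak, had a mean of 2.03 and a level of 0.704. The order of these 3 genes was Mixl1, Gsc and Evx1, but the ratio of Mixl1 to Gsc, 1.28 with an interval from 0.901 to 1.81, was within counting error. Evx1 shares 1335 bases of its span with Evx1os on the opposite strand, which had a mean of 1.36. Of the 50-base stretches of Evx1 transcripts, 0.904% occur in those of Evx1os. As no source says whether reads were counted by strand, the division of reads between this pair is uncertain.

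Among the basic helix-loop-helix factors, Mesp1 (chromosome 7, 79792241 to 79793788, minus strand), an early gene of cardiac and other anterior mesoderm, had a mean of 1.15 and a level of 0.902 per kilobase. Msgn1 (chromosome 12, 11208360 to 11208972, minus strand), a regulator of presomitic mesoderm, had a mean of 0.417 and a level of 0.681. Both lie at or below percentile 21.0 of all genes. The paralog Mesp2, 16938 bases from Mesp1, was measured at a mean of 61.6 and a level of 31.7 per kilobase, which is 35.1 times that of Mesp1. No 50-base stretch of Mesp1 occurs in another gene's transcripts, Mesp2 included.

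Foxa2 and Cer1 represent endoderm and the anterior streak. Foxa2 (chromosome 2, 148042877 to 148046969, minus strand), a forkhead factor of endoderm, node and notochord, had a mean of 5.16 and a level of 2.43 per kilobase, at percentile 28.9. Its ratio to T, the next lower member, was 1.24 and within counting error, and their order turned with the median transcript length (3.52 for Foxa2 and 5.24 for T). Cer1 (chromosome 4, 82881751 to 82885148, minus strand), a secreted inhibitor of Nodal, BMP and Wnt, had the lowest level of all members, 0.0443 per kilobase, at percentile 2.10.

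In the order of levels (Eomes, Tbx6, Mixl1, Gsc, Foxa2, T, Mesp1, Evx1, Msgn1, Cer1), neighbours that counting error does not separate were Mixl1 and Gsc, Foxa2 and T, Mesp1 and Evx1, and Evx1 and Msgn1. Tbx6 was 7.76-fold above Mixl1, with an interval from 6.30 to 9.56, which was the widest gap in the order above Msgn1. T was 2.16-fold above Mesp1, with an interval from 1.16 to 4.02. These intervals take reads as independent and hold no variation between libraries.

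To learn how the reads of the lowest members were spread, the means were resolved into whole reads. Where only 1 read was counted for a gene, its mean depends on nothing but the size factor of the library that held the read, so genes of this kind share as many values, or steps, as there are libraries. With at least 30 genes per step, 12 steps were found, with size factors from 0.726 to 1.47. All 712 distinct means below 0.6, which belong to 2500 genes, were matched by exactly 1 set of whole reads over these 12 libraries. The libraries are known only by their size factor, so none could be assigned to a line or genotype.

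Cer1 had a single read in the whole data set, in the library with size factor 1.08, and a single read allows an expected number of 0.0253 to 5.57 reads (exact Poisson interval, 95%). Since 1.78% of its 50-base stretches occur in 161 other genes, the origin of that read is uncertain. Msgn1 had 5 reads (interval from 1.62 to 11.7), 3 in the library with size factor 1.08 and 2 in that with 0.896. Mesp1 had 14 reads (interval from 7.65 to 23.5), 8 in the library with size factor 1.08, 5 in that with 0.896 and 1 in that with 1.23. This set of reads lay 9.9e-11 from the mean of Mesp1, and the next nearest sets, of 16 and 15 reads over other libraries, lay 1.9e-09 and 5.8e-09 from it, while no mean below 0.6 was more than 5.7e-10 from its own set. The split of Mesp1 thus rests on the tolerance of 1e-09. With that set, the other 9 libraries had no Mesp1 read, and the other 10 had no Msgn1 read. For Evx1, 16 sets of reads gave the same mean, with totals from 22 to 28 reads, and its libraries could not be resolved.

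**Figure D2:**
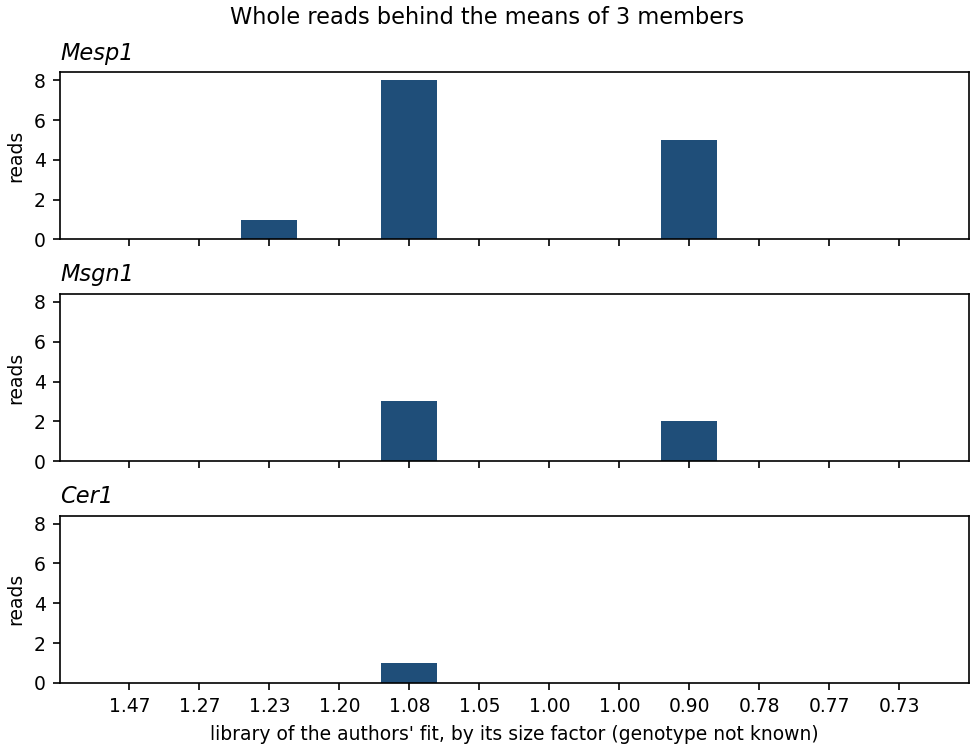
Whole reads (y axis) of Mesp1, Msgn1 and Cer1 in each of the 12 libraries of the authors' fit (x axis, named by size factor). With the set of reads nearest to the mean of Mesp1, all but 1 of the 20 reads of these 3 genes lie in the libraries with size factors 1.08 and 0.896.

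Reads of rare genes were unevenly spread in general. Of 265 genes with exactly 5 reads, the median number of libraries with a read was 2, and 81.9% had them in 2 libraries or fewer, as Msgn1 did. Of 51 genes with exactly 14 reads, a single matching set of reads and a mean within 10% of that of Mesp1, the median was 4 libraries, and 15.7% had them in 3 or fewer. The intervals above cover counting error only.

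To place the members among related genes, 8 further lists were described by level, beside the median of 22.3 per kilobase over all genes. Some listed genes had no value: Gdf1 of 23 Nodal and BMP genes, and Afp, Shh and Ttr of 19 endoderm and axial mesoderm genes. The same held for Tpbpa of 10 trophectoderm genes, and Dcn, Lum and Postn of 10 fibroblast genes. Counts and medians leave these genes out. Of 22 listed Nodal and BMP pathway genes in the table, 20 (90.9%, against 66.3% of all genes) had a mean of at least 10, with a median level of 124.5 per kilobase. The highest means were those of Tdgf1, the Nodal co-receptor (1533 per kilobase), and Foxh1 (1675). Of 21 Wnt and FGF pathway genes, 15 (71.4%) had a mean of at least 10, a share close to that of all genes. Their median level was 77.4, but 32.2 when all exon bases were merged, against 17.1 for all genes on that length. The list was led by Fgf4 (1437), the FGF ligand of mESCs, and Ctnnb1 (890.0), which encodes β-catenin.

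Within the latter list the streak's own ligands were low. Wnt3, Wnt3a and Fgf8 had means from 1.05 to 1.25, which rest on 15, 18 and 12 reads, and Wnt8a had 1 read. These genes were named after their values were seen. Receptors and transducers of the same list, such as Fzd7 with 241.4 and Tcf7l1 with 582.3 per kilobase, were higher, but unevenly so. The receptor gene Fgfr2 had 11.3 per kilobase, below the median of 22.3 over all genes.

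**Figure D3:**
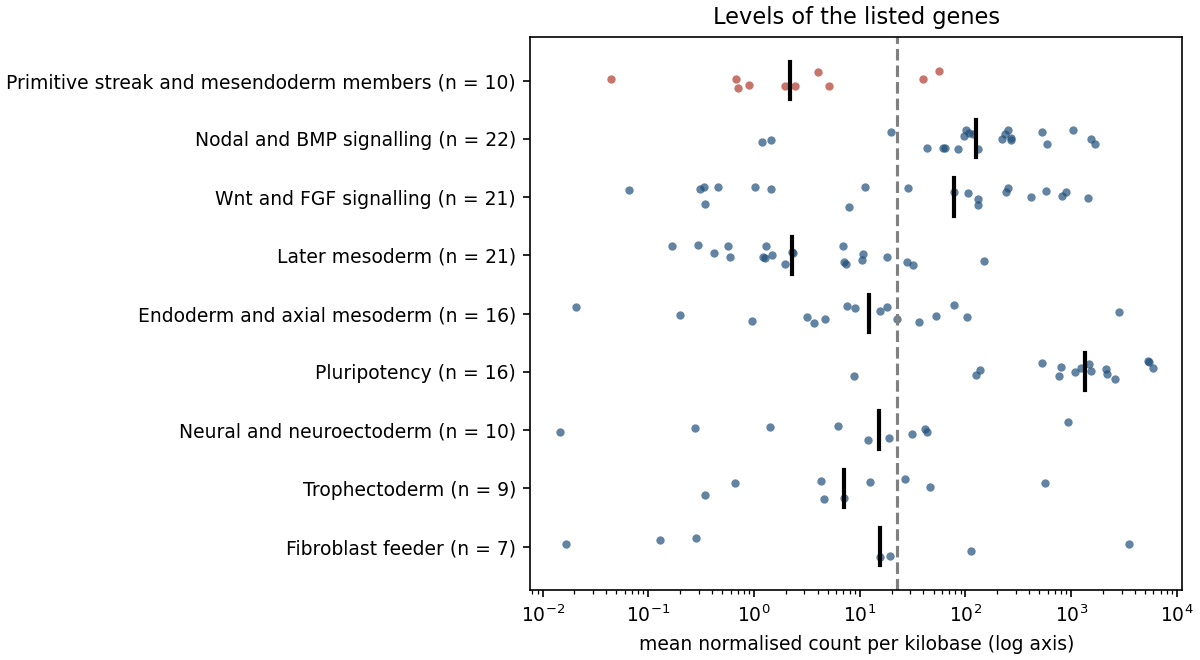
Level of every listed gene in the table (points), as the mean normalised count per kilobase on a log axis, with black bars for list medians and a dashed line for the median of all genes. The members (median 2.19) and later mesoderm genes (2.30) lie lowest, and pluripotency genes (1357) highest.

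Later mesoderm genes had a median level of 2.30 per kilobase over 21 genes, close to that of the members, and 10 of 21 had a mean of at least 10. The highest were Tcf15 (148.9), a bHLH factor of paraxial mesoderm also known from mESCs, and Mesp2. Of 16 endoderm and axial mesoderm genes in the table, 13 had a mean of at least 10, with a median level of 12.3. Trh, which encodes thyrotropin-releasing hormone, led them with 2815 per kilobase, followed by Hnf4a with 103.8.

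Markers of the labelled cell type were present. Of 16 pluripotency genes 15 had a mean of at least 10, with a median level of 1357 per kilobase, led by the mean of Esrrb (5367 per kilobase) and that of Klf5 (5388). Lists for other cells had lower median levels, yet many of their genes had reads. A mean of at least 10 was reached by 7 of 10 neural genes (70.0%) and 7 of 9 trophectoderm genes (77.8%). For genes of feeder fibroblasts it was reached by 4 of 7 (57.1%), against 66.3% of all genes. By mean, Tubb3 (929.5 per kilobase) and Sox1 (41.2) led the 10 neural genes, though Pax6 had a higher level than Sox1 (42.8). The median level of these genes was 15.4 per kilobase. For 9 trophectoderm genes it was 7.12, led by Tfap2c (567.4) and Ascl2 (46.5), and this list shares Hand1 (7.12) with later mesoderm. For the 7 of 10 genes of feeder fibroblasts with a value it was 15.4, led by Fn1 (3483) and Thy1 (111.9). The rest had levels of 19.3 (Col1a1), 15.4 (Pdgfrb), 0.285 (Acta2), 0.129 (Col1a2) and 0.0167 (Col3a1), and Dcn, Lum and Postn had no value. The part of such cells in the members' levels was not tested.

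Finally, each member was set beside the nearest genes of the table on either side. Of the 10 members, 5 (Mixl1, Mesp1, Tbx6, Msgn1 and Cer1) were lower per kilobase than both flanking genes, 4 lay between them and 1, Foxa2, was higher than both. Foxa2 lies in a wide gap, 649581 bases from Pax1 and 348374 from Sstr4, which had levels of 0.951 and 0.564 per kilobase. Mixl1 lies 2348 bases from Lin9, whose level was 8.01 times higher. Msgn1 lies between Kcns3 and Gen1, with levels 21.9 and 85.3 times its own. The neighbours were fixed by position and not by their values. The same split was not computed over all genes, so these counts cannot be read as a trait of the members.

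**Figure D4:**
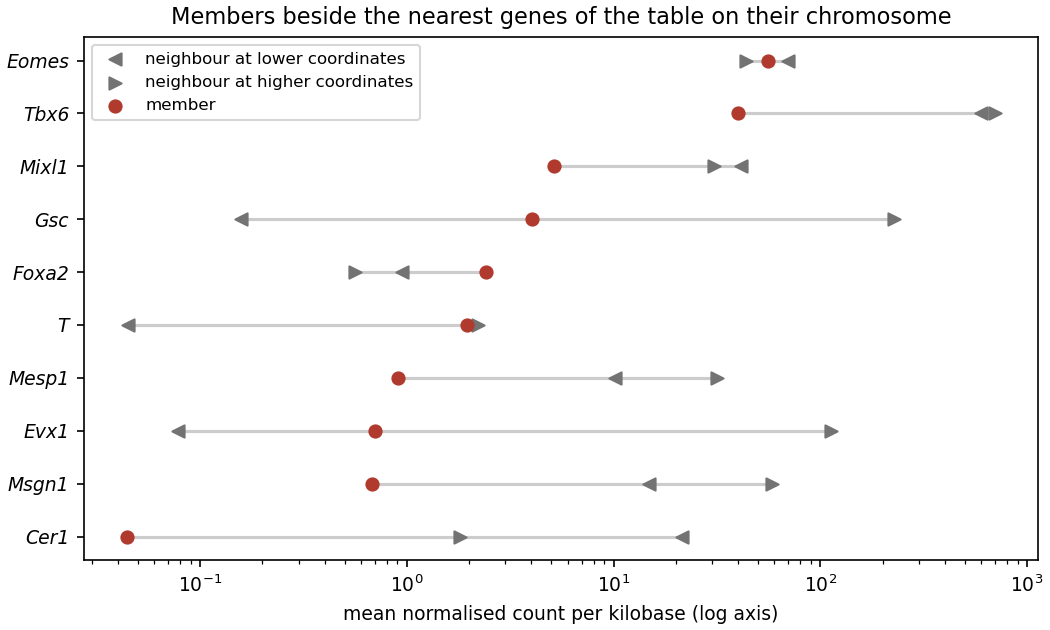
Level per kilobase, on a log axis, of each member (red) and of the nearest genes of the table on either side (grey triangles). Tbx6 at 39.9 lies well below both neighbours although it is the second highest member, while Foxa2 at 2.43 lies above both of its own.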

How the data were processed

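Total RNA was depleted of ribosomal RNA, and the authors aligned the 50-base single-end reads to GRCm38.p6 with STAR 2.5.3a and normalised gene counts with DESeq2 1.20.0. The annotation release and the strand setting of the counts are not given in the sources used here. The unit used is the authors' deposited mean normalised signal per gene (gene counts divided by size factors, averaged over the libraries of their fit), and its mean total was 10937569. The table's other numeric columns hold the authors' own comparison of D2018A with WT (fold change, standard error, statistic and p-values) and were not used. No test was therefore run, the planned count model included.

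Members and lists were chosen with earlier results of these data known. Named were all members, the 2 highest means of each other list and genes shared between lists. Genes sharing 50-base stretches with members were too many to name. Others were named by position or after their values were seen.

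Lengths, coordinates, overlaps and 50-base stretches came from GENCODE vM21 (19342 of 19429 identifiers matched, and all 10 members at the deposited coordinates), promoters from RefSeq. Mapping to the genome outside transcripts was not analysed here. Whole reads were found as sums of single-read steps that matched a mean within 1e-09, after the step values were refined by least squares, and this was tested on simulated data: of 40 simulated means of the size of that of Mesp1, over 12 libraries, 36 had a single set and all 36 sets were the simulated reads. Bounds on reads are the mean divided by the largest and smallest step, and counting errors use the lower bound unless reads were resolved. Reads carry no molecular identifiers. Python 3.11.15, numpy 2.4.6, pandas 2.3.3, scipy 1.17.1 and matplotlib 3.10.9 were used. Alternative lengths, gene sets, thresholds and tolerances were tried.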

Additional observations from a re-analysis of the deposited data

Results flagged for a closer look

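The deposited means draw on 4 libraries beyond the 8 samples described, since 12 single-read steps were found. This drew attention because more libraries lie behind the means than samples are described. Which 4 of the 12 libraries these are was not determined, nor from which cells they came, so the members' means may include cells other than the 8 samples described.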

How the results depend on the processing

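No paired analysis was possible because the result is 1 mean per gene with no values per sample, and for the same reason the planned fits without each replicate, with a replicate block and with DESeq2 size factors were not run. The order of the members did not change when length was taken as all exon bases merged. It changed for 4 members (Gsc with Foxa2 and Mesp1 with Evx1) when length was ignored, and for 6 members with the median transcript length, which moved T from 1.95 to 5.24 and from rank 6 to 3. Eomes, Tbx6 and Cer1 kept ranks 1, 2 and 10 under all 3. Of the members' levels per kilobase, 1 moved beyond its counting error with merged exons and 4 with the median length. The median percentile of the members was 23.0 among protein-coding genes and 17.4 with means under 1 filtered out, which leaves out Msgn1 and Cer1. A mean of at least 5 was reached by 5 members and one of at least 20 by 2. With at least 20 genes per step 12 steps were found, and with at least 50 there were 5, by construction of a stricter minimum. In an alternative chosen after the data were seen, matching within 1e-08 left 2 members with a single set of reads, since 3 sets then gave the mean of Mesp1, and the 2 added sets place at most 1 read in the libraries with size factors 1.08 and 0.896. Depth limits the 7 members with a mean under 10.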

Other observations

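With the set of reads nearest to the mean of Mesp1, the reads of the 3 lowest members by mean lay in the same few libraries. Of the 20 reads of Mesp1, Msgn1 and Cer1, 12 were in the library with size factor 1.08 and 7 in that with 0.896, which is 60.0% and 35.0%. The same libraries held 6.77% and 14.4% of the 7971 reads of all 2500 genes with a mean below 0.6. This was noticed after the values were seen, and no test was made of it. Both the lines and the genotypes of these libraries are unknown here.

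Of the 16 other list genes whose reads were resolved, 7 had reads in 1 or both of these libraries, which held 6 (5.31%) and 18 (15.9%) of their 113 reads. These splits were found within 1e-09, and no wider tolerance was tried for these genes. Acta2, a gene of the fibroblast list, had 5 of 6 reads in the library with 0.896 and Col3a1 its only one. Col1a2, also of the fibroblast list, had all 6 of its reads in the library with 0.726 and none in the pair. Fgf8 had 6 of 12 reads in the library with 0.896, and Fgf5 and Elf5 had 2 in each of the pair. Wnt3, with 15 reads, Aplnr, with 10, and Noto, with 3, had none in either. Nodal itself had a level of 223.4 per kilobase and its inhibitors Lefty1 and Lefty2 61.4 and 102.1, while Cer1, another inhibitor of Nodal, had a single read.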
